A study of Mus musculus with 4 samples.

Results

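The collagen chain genes are the genes that encode the alpha chains of collagens, and they were taken here as every gene whose symbol has the form Col, a type number, the letter a and a chain number. In the annotation of the Affymetrix mouse exon 1.0 ST array, 38 of 16358 genes met this rule through probe sets with exactly 1 symbol. These 38 genes were covered by 1855 probe sets, with between 2 and 119 probe sets per gene and a median of 52.5. There were 11 fibrillar collagens, 6 basement membrane collagens of type IV, 8 fibril-associated collagens with interrupted triple helices (FACIT) and 13 collagens of other types.

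RNA was taken from embryoid bodies (EBs), floating aggregates in which embryonic stem (ES) cells differentiate once the inhibitors CHIR99021 and PD0325901 (2i) and LIF are withdrawn. Mst-/- EBs came from ES cells that lack Mst1 and Mst2 (gene symbols Stk4 and Stk3), the kinases at the head of the mammalian Hippo pathway, through deletion of exons 4 and 5 of Mst1 and exons 5 and 6 of Mst2, which code for the kinase domain. Wild type EBs were the reference. Each genotype was sampled at day 4 and at day 8 on 1 array, which gave 4 arrays in all and no replicate of any condition, so no difference below has a replicate check or a p-value. The Mst-/- ES cells had been derived from blastocysts on mouse embryonic fibroblast feeders and then adapted to grow without feeders, and the sources used here do not say which of the derived Mst-/- lines was arrayed. For the Mst-/- array of day 8, the title and cell type give day 8 whereas the description field gives day 4, and the title was followed.

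Collagens are trimers of alpha chains wound into a triple helix, and they are the main structural proteins of the extracellular matrix. The fibrillar types I, III and V form the fibrils of mesenchymal and connective tissue and types II and XI those of cartilage, while type IV forms the sheet-like network of basement membranes that lies under epithelia and endothelium. In EBs the first basement membrane is laid down by primitive endoderm, and fibrillar collagens follow as mesenchymal cells arise.

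The promoters of 3 of these genes are shown because the results turn on the transcripts that start from them. Col1a2 and Col3a1 had the largest genotype differences, by the median over probe sets, among the genes with a window in the RefSeq promoter table, and Col4a1 is transcribed head to head with Col4a2. Each window holds 250 bases before the annotated start and 50 from it onwards, 5′ to 3′ on the gene's strand, in build GRCm38.p6, and the sequences are credited to RefSeq. The Col1a2 window is chr6:4505368-4505667 on the plus strand and the Col3a1 window is chr1:45311288-45311587 on the plus strand. In both, capitals mark matches on either strand to the CCAAT box (CCAAT), the TATA box (TATAAA), the GC box (GGGCGG) and CATTCC (the core recognised by TEAD factors, the DNA-binding partners of the Hippo effector Yap). The Col4a1 window is chr8:11312777-11313076 on the minus strand, and its capitals mark the 78 bases whose reverse complement also lies in the Col4a2 window.
Col1a2: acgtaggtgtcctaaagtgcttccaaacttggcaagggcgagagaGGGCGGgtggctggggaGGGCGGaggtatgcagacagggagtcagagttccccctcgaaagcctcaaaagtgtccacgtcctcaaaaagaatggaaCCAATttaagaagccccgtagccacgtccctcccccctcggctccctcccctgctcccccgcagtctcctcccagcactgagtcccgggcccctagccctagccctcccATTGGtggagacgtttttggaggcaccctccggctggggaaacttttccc
Col3a1: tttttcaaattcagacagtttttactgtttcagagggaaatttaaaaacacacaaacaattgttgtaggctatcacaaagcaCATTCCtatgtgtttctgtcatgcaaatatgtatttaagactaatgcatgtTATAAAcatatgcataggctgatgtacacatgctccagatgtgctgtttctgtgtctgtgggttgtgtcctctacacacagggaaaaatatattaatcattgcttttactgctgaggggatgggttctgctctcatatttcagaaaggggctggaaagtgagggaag
Col4a1: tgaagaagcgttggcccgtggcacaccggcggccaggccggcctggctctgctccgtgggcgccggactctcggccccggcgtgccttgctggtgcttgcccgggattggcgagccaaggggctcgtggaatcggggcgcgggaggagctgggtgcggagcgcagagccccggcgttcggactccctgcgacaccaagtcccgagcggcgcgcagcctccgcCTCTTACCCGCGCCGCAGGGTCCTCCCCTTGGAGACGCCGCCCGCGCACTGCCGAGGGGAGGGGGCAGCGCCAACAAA
The Col1a2 window held CCAAT boxes 109 bases before the start and at the start itself, and GC boxes 205 and 188 bases before it. The Col3a1 window held a TATA box 117 bases and a CATTCC match 168 bases before the start, and no GC box. The annotated starts of Col4a1 and Col4a2 lay 21 bases apart, so that the first bases of the 2 transcripts overlap on opposite strands, and those of Col4a6 and Col4a5 on the X chromosome lay 1343 bases apart. Of the 38 genes, 31 had 34 windows between them. Col1a1, Col2a1, Col4a3, Col5a2, Col9a3, Col12a1 and Col14a1 had none. CATTCC was in 5 of the 34 windows (14.7%), against 14.7% of all 32851 promoter windows, CCAAT in 12 (35.3%, against 37.4%), TATAAA in 5 (14.7%, against 13.6%) and GGGCGG in 20 (58.8%, against 35.7%). A match of this kind describes the letters of a window and not a bound site.

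Values are log2 signals, and the signal of a gene is the median over its probe sets on an array. The value after ± is the standard deviation (SD) of a difference over the probe sets of the gene. It holds differences between parts of a gene as well as technical spread within a pair of arrays. The spread between cultures is not measured by it. To be compared, a gene had to exceed background on 1 or both of the arrays concerned. Background was estimated from 1013 receptor genes of the nose (olfactory and vomeronasal), which EBs are not known to use, as their 95th percentile on each array. It was 6.96 and 6.91 in Mst-/- EBs at days 4 and 8, and 7.03 on both wild type arrays. The threshold was a difference of 1.5-fold. Among the same receptor genes, 15.5% at day 4 and 12.8% at day 8 differed between the genotypes by more than 1.5-fold, which shows how often these genes pass this threshold between single arrays. Between the days, 18.8% of these receptor genes did so in Mst-/- EBs and 12.1% in wild type EBs. Their numbers of probe sets were not matched to those of the collagen genes. Signals of different genes come from different probes and are not set against each other. Of the 38 collagen genes, 28 were above background on all 4 arrays, 2 on 3 arrays, 4 on 2 arrays, and 4 (Col8a1, Col10a1, Col19a1 and Col24a1) on none.

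On the whole-array level, the median probe set signal lay between 8.59 and 8.71 on the 4 arrays, 0.10 higher at day 8 than at day 4 in Mst-/- EBs and 0.12 higher in wild type EBs. In 2 of 13 Stk4 probe sets the signal was between 3.83 and 4.80 on the Mst-/- arrays and between 11.42 and 12.03 on the wild type arrays, while probe sets of Stk3 are not analysed here. The cell lines also differed in genes that the deletion does not target. Hprt, the purine salvage enzyme, was at 11.09 and 10.42 in Mst-/- EBs at days 4 and 8, against 4.82 and 4.39 in wild type EBs, and the Y-linked Eif2s3y was at 4.07 and 4.22 in Mst-/- EBs, against 10.39 and 10.38 in wild type EBs. With 1 line per genotype on the arrays, differences between the lines and effects of the deletion cannot be told apart.

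The first comparison asked how the collagen genes differed between Mst-/- and wild type EBs at each day. At day 4 there was little difference. Of 31 collagen genes compared, 1 (Col18a1) was over 1.5-fold higher in Mst-/- EBs, when 10.3% of all 11943 genes compared were, and 3 (Col4a6, Col14a1 and Col23a1) were over 1.5-fold lower in measured signal, when 8.52% of all genes were. With values below background raised to background, 2 remained on the lower side, without Col4a6. The collagen shares were 3.23% higher and 9.68% lower, the second of them near its background. The median difference of the collagen genes was -0.22, against 0.02 over all genes. At day 8 the picture was one-sided. Of 34 collagen genes compared, 14 (41.2%) were over 1.5-fold lower in Mst-/- EBs, against a background of 8.22% of 12171 genes, and 0 were over 1.5-fold higher, against 8.42%. The median was -0.37 for collagen genes and 0.05 over all genes. Whole EBs were measured, so that fewer cells of a type and less RNA per cell cannot be told apart.

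The 14 lower genes at day 8 were 7 of 10 fibrillar collagens, 2 of 6 type IV collagens, 1 of 7 FACIT collagens and 4 of 11 others. The family medians were -0.89 for fibrillar, -0.06 for type IV, -0.36 for FACIT and -0.38 for other collagens. In 13 of the 14 genes over 90% of the probe sets differed in the direction of the median, and in 6 every probe set did. In 13 of the 14 the difference was larger than its SD over probe sets, the exception being Col11a1. Over all 38 genes, 4 of them never above background, the Mst-/- signal was lower in 27 and higher in 10 at day 4. At day 8 it was lower in 31 and higher in 7. The median difference over these 38 genes was -0.2 at day 4 and -0.35 at day 8. Over all 16358 genes without a filter it was 0.01 and 0.02. How many of all genes were lower or higher by sign was not counted.

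**Figure D1:**
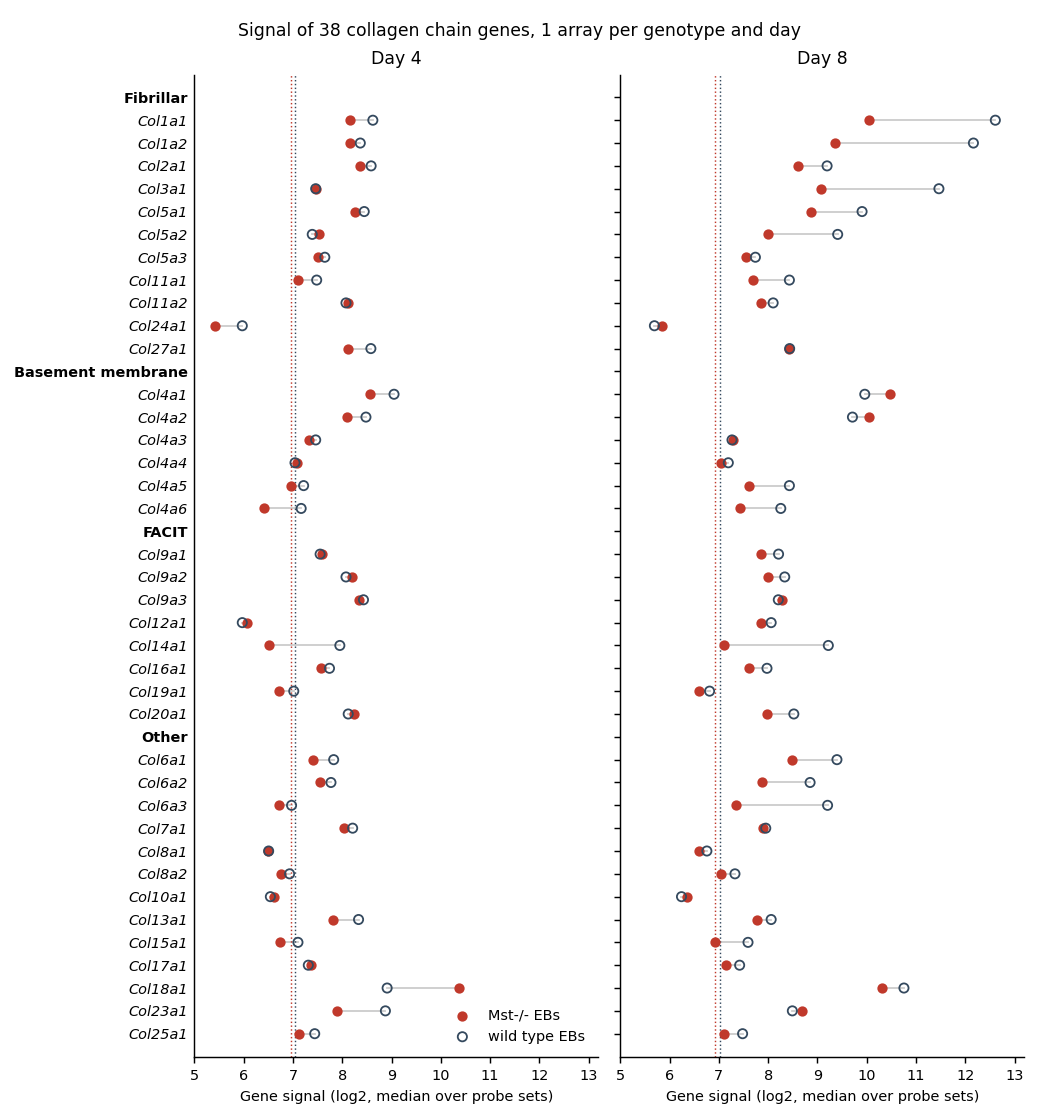
Log2 signal of the 38 collagen chain genes (rows, by family) at day 4 (left) and day 8 (right), with filled points for Mst-/- EBs, open points for wild type EBs and dotted lines for the background of each array. At day 4 most pairs of points lie close together, and at day 8 the wild type points of Col1a1, Col1a2 and Col3a1 stand at 12.61, 12.17 and 11.47, far to the right of the Mst-/- points.

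**Figure D2:**
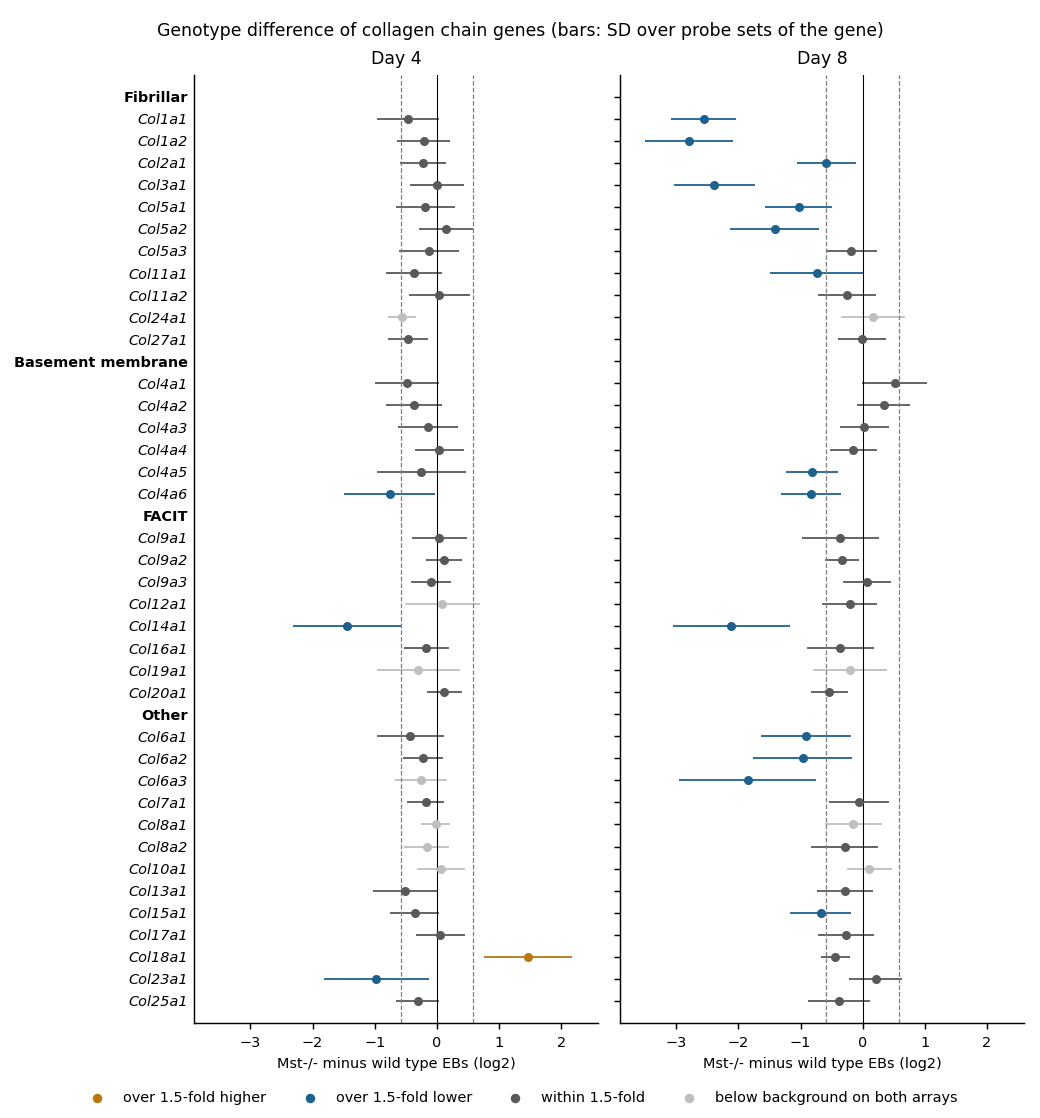
Difference in log2 signal, Mst-/- minus wild type EBs, of each collagen chain gene at day 4 (left) and day 8 (right). Points are gene differences, bars the SD over the probe sets of the gene and dashed lines 1.5-fold, and the 14 blue points at day 8 are the genes over 1.5-fold lower in Mst-/- EBs.

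By the median over probe sets, the largest differences were in chains of the main interstitial fibrils. Col1a1, which encodes the alpha1 chain of type I collagen, had a signal of 8.16 in Mst-/- EBs and 8.62 in wild type EBs at day 4. At day 8 its signal was 10.05 in Mst-/- EBs and 12.61 in wild type EBs. The day 4 difference was -0.46 ± 0.50 (SD over 53 probe sets), within 1.5-fold, whereas at day 8 Col1a1 was 5.90-fold lower in Mst-/- EBs (-2.56 ± 0.52), and 53 of 53 probe sets were lower. Col1a2 encodes the alpha2 chain that joins 2 alpha1 chains in the type I trimer, and its signal was 8.15 in Mst-/- EBs and 8.37 in wild type EBs at day 4. At day 8 it was 9.37 in Mst-/- EBs and 12.17 in wild type EBs, which is 6.96-fold lower (-2.80 ± 0.71, 52 of 52 probe sets lower) and the largest difference of any collagen gene on either day by the median over probe sets. With the brightest probe set alone the day 8 difference of Col1a1 was -1.86, and Col5a2 (-2.14) and Col6a3 (-2.35) had larger differences than either type I chain. By the median both chains of type I collagen were thus lower by a similar amount at day 8, after differences of -0.46 and -0.22 at day 4.

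Col3a1, the single chain of type III collagen, which forms fibrils together with type I, had the same signal of 7.46 in both genotypes at day 4. At day 8 it was 9.08 in Mst-/- EBs and 11.47 in wild type EBs, 5.24-fold lower in Mst-/- EBs (-2.39 ± 0.65) and lower in 54 of 54 probe sets. Over the 159 probe sets of Col1a1, Col1a2 and Col3a1 together, 159 were lower and 0 higher in Mst-/- EBs at day 8, against 102 lower and 55 higher at day 4. The genotypes were therefore separated at every probe set of these genes at day 8, and only in part at day 4.

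Type V collagen is built into type I fibrils and sets their diameter. Col5a1 was at 8.26 in Mst-/- EBs and 8.45 in wild type EBs at day 4 and at 8.88 in Mst-/- EBs and 9.91 in wild type EBs at day 8, a day 8 difference of -1.03 ± 0.54 (2.04-fold lower, 70 of 72 probe sets). Its partner chain Col5a2 was at 7.53 in Mst-/- EBs and 7.39 in wild type EBs at day 4 and at 7.99 in Mst-/- EBs and 9.41 in wild type EBs at day 8, which is 2.68-fold lower (-1.42 ± 0.71, 57 of 57 probe sets). The third chain, Col5a3, differed by -0.13 at day 4 and -0.19 at day 8, within 1.5-fold on both days.

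By the median over probe sets the cartilage fibril chains differed less. Col2a1, the type II chain, was at 8.36 in Mst-/- EBs and 8.59 in wild type EBs at day 4 and at 8.61 in Mst-/- EBs and 9.20 in wild type EBs at day 8, and its day 8 difference of -0.59 ± 0.47 was just past the threshold (1.51-fold), whereas its brightest probe set gave -1.36. Col11a1, a type XI chain that nucleates type II fibrils, was at 7.11 in Mst-/- EBs and 7.48 in wild type EBs at day 4 and at 7.69 in Mst-/- EBs and 8.43 in wild type EBs at day 8, when it differed by -0.74 ± 0.76 (1.67-fold lower). Col11a2 differed by 0.04 and -0.25 on the 2 days. Col27a1, a further fibrillar chain of cartilage, was at 8.12 in Mst-/- EBs and 8.58 in wild type EBs at day 4 (-0.46 ± 0.32) and at 8.42 in Mst-/- EBs and 8.44 in wild type EBs at day 8, within 1.5-fold on both days. Col24a1, with 5 probe sets, was below background on all 4 arrays.

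The pairs of type IV genes went different ways. Col4a1 and Col4a2, whose products form the trimer found in nearly all basement membranes, were the collagen genes that stood highest in Mst-/- relative to wild type EBs at day 8, though within 1.5-fold. Col4a1 was at 8.57 in Mst-/- EBs and 9.05 in wild type EBs at day 4 (-0.48 ± 0.52, 60 of 67 probe sets lower). At day 8 it was at 10.47 in Mst-/- EBs and 9.96 in wild type EBs (0.51 ± 0.52, 49 of 67 probe sets higher). Col4a2 repeated this pattern at 8.11 in Mst-/- EBs and 8.48 in wild type EBs at day 4 (-0.38 ± 0.45, 50 of 54 lower). Its day 8 signal was 10.05 in Mst-/- EBs and 9.71 in wild type EBs (0.34 ± 0.42, 47 of 54 higher).

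These 2 genes share the 78 bases printed in capitals above, and of their 121 probe sets 110 were lower in Mst-/- EBs at day 4, whereas 96 were higher at day 8. The median over the single probe set differences was -0.64 at day 4 and 0.22 at day 8, so the day 4 value depends on whether probe sets are summarised before or after the subtraction. Col4a5 and Col4a6, the X-linked pair, were instead lower in Mst-/- EBs at day 8. Col4a5 was at 6.97 in Mst-/- EBs and 7.22 in wild type EBs at day 4 and at 7.62 in Mst-/- EBs and 8.43 in wild type EBs at day 8 (-0.82 ± 0.41, 1.76-fold lower). Col4a6 was at 6.41 in Mst-/- EBs and 7.17 in wild type EBs at day 4, where the Mst-/- signal was below background and the difference is at least 1.15-fold. At day 8 it was at 7.42 in Mst-/- EBs and 8.26 in wild type EBs (-0.84 ± 0.49, 1.78-fold lower). Of the 124 probe sets of this pair, 120 were lower in Mst-/- EBs at day 8, although the brightest alone gave -0.36 for Col4a5 and -0.25 for Col4a6, within 1.5-fold. Col4a3 and Col4a4, which form the trimer of the kidney filter together with Col4a5, stayed close to background with signals between 7.04 and 7.46, and neither passed 1.5-fold on either day.

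FACIT collagens sit on the surface of fibrils, and of these Col14a1 stood apart. Col14a1, which binds type I fibrils, was at 6.51 in Mst-/- EBs and 7.95 in wild type EBs at day 4. The Mst-/- signal was below background, so that Col14a1 was at least 1.99-fold lower there (-1.45 ± 0.86, 46 of 50 probe sets). At day 8 it was at 7.11 in Mst-/- EBs and 9.22 in wild type EBs, which is 4.33-fold lower (-2.12 ± 0.94, 49 of 50 probe sets). It was the only collagen gene over 1.5-fold lower on both days when signals below background are held at background. Its day 4 difference was -1.11 with the mean over probe sets, whereas the brightest probe set gave -0.48, within 1.5-fold. For Col4a6 at day 4 the mean gave -0.62 and the brightest probe set -0.15.

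Col12a1, a FACIT collagen related to Col14a1 and also found on type I fibrils, did not follow it. It was below background at day 4, at 6.06 in Mst-/- EBs and 5.97 in wild type EBs, and at 7.85 in Mst-/- EBs and 8.06 in wild type EBs at day 8, a difference of -0.21 ± 0.44. The 3 type IX chains, which coat cartilage fibrils, differed by 0.04 (Col9a1), 0.12 (Col9a2) and -0.10 (Col9a3) at day 4, and by -0.36, -0.34 and 0.08 at day 8. Of these Col9a3 was at 8.33 in Mst-/- EBs and 8.43 in wild type EBs at day 4 and at 8.28 in Mst-/- EBs and 8.21 in wild type EBs at day 8. Col16a1 (-0.17 at day 4 and -0.36 at day 8) and Col20a1 (0.12 and -0.54) were likewise within 1.5-fold, and Col19a1 was not above background.

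Type VI collagen forms beaded filaments around cells from the chains of Col6a1, Col6a2 and Col6a3, and all 3 were lower in Mst-/- EBs at day 8. Col6a1 was at 7.40 in Mst-/- EBs and 7.83 in wild type EBs at day 4 and at 8.49 in Mst-/- EBs and 9.40 in wild type EBs at day 8 (-0.91 ± 0.72, 1.88-fold lower, 34 of 34 probe sets). Col6a2 was at 7.55 in Mst-/- EBs and 7.77 in wild type EBs at day 4 and at 7.88 in Mst-/- EBs and 8.85 in wild type EBs at day 8 (-0.97 ± 0.79, 1.96-fold lower, 26 of 27). Col6a3 was below background at day 4, at 6.72 in Mst-/- EBs and 6.97 in wild type EBs, and at 7.35 in Mst-/- EBs and 9.21 in wild type EBs at day 8, which is 3.62-fold lower (-1.86 ± 1.10, 44 of 44). Col6a3, which encodes the longest of these chains, thus had the largest difference of the type VI genes. With the brightest probe set alone, Col6a1 (-0.48) and Col6a2 (-0.21) were within 1.5-fold.

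Col18a1, the basement membrane proteoglycan whose C-terminal fragment is endostatin, was the one collagen gene over 1.5-fold higher in Mst-/- EBs. At day 4 it was at 10.38 in Mst-/- EBs and 8.91 in wild type EBs, which is 2.76-fold higher (1.47 ± 0.70, 45 of 46 probe sets). At day 8 it was at 10.32 in Mst-/- EBs and 10.76 in wild type EBs, a difference of -0.44 ± 0.24 with 43 of 46 probe sets lower. In wild type EBs the day 4 signal was the low one of the 4, and the Mst-/- signal was nearly the same on both days. Its relative Col15a1 was near background at day 4, at 6.74 in Mst-/- EBs and 7.10 in wild type EBs, and at 6.91 in Mst-/- EBs and 7.59 in wild type EBs at day 8, where the Mst-/- signal did not exceed background and Col15a1 was at least 1.60-fold lower (-0.08 with its brightest probe set alone).

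Col23a1, a transmembrane collagen, was at 7.90 in Mst-/- EBs and 8.88 in wild type EBs at day 4 (-0.98 ± 0.84, 1.97-fold lower, 22 of 26 probe sets) and at 8.70 in Mst-/- EBs and 8.49 in wild type EBs at day 8 (0.21 ± 0.42). Its day 4 difference rests on part of the gene, since the brightest of its probe sets gave 0.01 in place of -0.98. The other transmembrane collagens Col13a1, Col17a1 and Col25a1, the anchoring fibril collagen Col7a1 and the network collagen Col8a2 were within 1.5-fold on each day on which they were compared, between -0.51 (Col13a1 at day 4) and 0.06 (Col17a1 at day 4). Col8a1 and Col10a1 were not above background on any array.

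**Figure D3:**
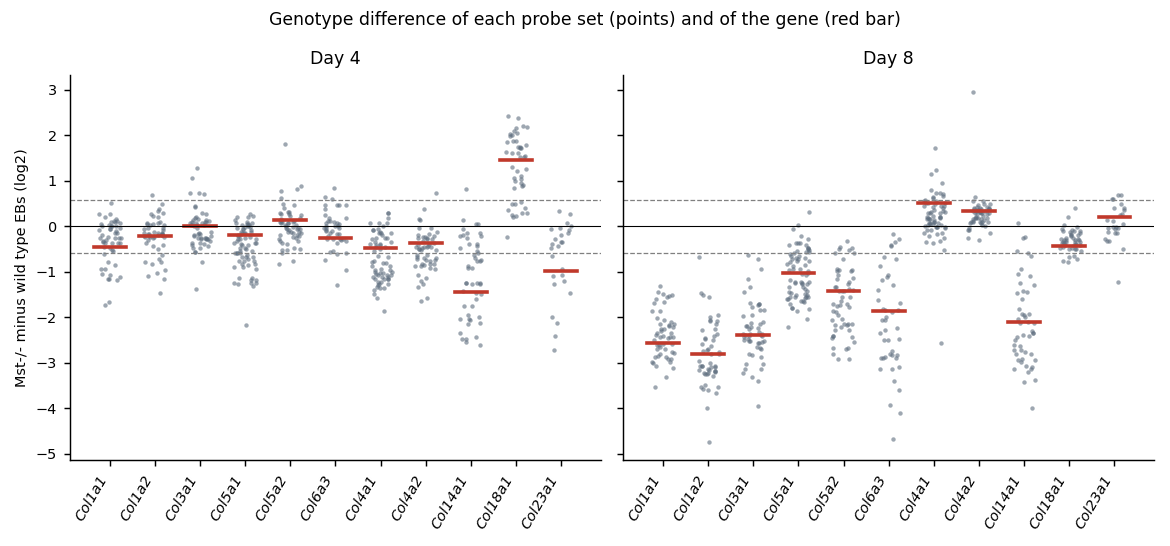
Difference in log2 signal, Mst-/- minus wild type EBs, of every probe set (points) of 11 collagen chain genes at day 4 (left) and day 8 (right), with the gene difference as a red bar and 1.5-fold as dashed lines. All 159 points of Col1a1, Col1a2 and Col3a1 lie below 0 at day 8, and 45 of 46 points of Col18a1 lie above 0 at day 4.

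The second comparison followed the collagen genes between day 4 and day 8 within each genotype. Mst-/- EBs had 13 of 33 collagen genes (39.4%) over 1.5-fold higher at day 8, against 13.3% of all 12134 genes compared, and 0 over 1.5-fold lower, against 7.48%. Wild type EBs had 18 of 34 (52.9%) over 1.5-fold higher, against 16.7% of 12084 genes, and 0 over 1.5-fold lower, against 12.7%. Of the 13 genes in Mst-/- EBs, 5 had a change larger than its SD over probe sets. In 6 of the 13, over 90% of the probe sets changed in the direction of the median. For the 18 genes in wild type EBs each of these counts was 14. The median change was 0.30 in Mst-/- EBs and 0.64 in wild type EBs, when over all genes it was -0.01 in Mst-/- EBs and -0.02 in wild type EBs. With the brightest probe set alone the collagen count in Mst-/- EBs fell more steeply than that over all genes, as given in the closing section. The same 4 arrays serve in the genotype comparisons above, so the values are given side by side and not as separate evidence.

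There were 12 of 38 collagen genes over 1.5-fold higher at day 8 in both genotypes (31.6%), against 5.98% of all 16358 genes. In 10 of these 12 the change was smaller in Mst-/- EBs (83.3%), against 56.2% of the 978 genes of the array that were higher in both. The exceptions were Col4a1 and Col4a2. Of the 12 genes, Col4a5, Col5a1, Col6a3 and Col14a1 were within 1.5-fold in Mst-/- EBs with centred arrays and with quantile normalization. Whether past the threshold or not, the signed change was smaller in Mst-/- EBs for 27 of 38 collagen genes (71.1%), against 48.3% of all genes. As a description across 38 genes, which are not independent replicates and which share their arrays and probes, the changes of the 2 genotypes had a Pearson correlation of 0.70 and a Spearman correlation of 0.65.

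Col1a1 was higher at day 8 by 1.89 in Mst-/- EBs (3.71-fold) and by 3.99 in wild type EBs (15.9-fold). For Col1a2 the change was 1.22 in Mst-/- EBs (2.32-fold) and 3.80 in wild type EBs (13.9-fold), and for Col3a1 it was 1.62 ± 2.21 in Mst-/- EBs (3.06-fold) and 4.01 ± 2.41 in wild type EBs (16.1-fold). The wide SD of Col3a1 reflects single probe sets whose wild type change ranged from 0.64 to 9.62. Type I and type III chains thus had the largest changes with time of all collagen genes in wild type EBs by the median, and in Mst-/- EBs they changed in the same direction. With the brightest probe set alone the changes in Mst-/- EBs scattered, at 0.09 for Col1a1 and 0.46 for Col3a1, both within 1.5-fold, but 3.16 for Col1a2 and 2.22 for Col5a1. In wild type EBs it gave 1.99 for Col1a1, 1.94 for Col3a1 and 4.75 for Col1a2. Col5a2 changed by 0.46 in Mst-/- EBs and by 2.02 in wild type EBs (4.06-fold), and with its brightest probe set by 1.69 in Mst-/- EBs and by 4.07 in wild type EBs. Col6a3, below background at day 4 in both, was at least 1.31-fold higher at day 8 in Mst-/- EBs and at least 4.50-fold higher in wild type EBs.

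In Mst-/- EBs the changes of Col4a2 and Col4a1 were close to that of Col1a1, and their order depends on the summary over probe sets. The mean over probe sets gave 1.85 for Col4a2, 1.88 for Col4a1 and 1.92 for Col1a1. Col4a2 was 3.84-fold higher at day 8 in Mst-/- EBs (1.94 ± 0.91, 54 of 54 probe sets) and 2.35-fold higher in wild type EBs (1.23 ± 0.55). Col4a1 was 3.73-fold higher in Mst-/- EBs (1.90 ± 1.03) and 1.88-fold higher in wild type EBs (0.91 ± 0.63). Col4a5 changed by 0.65 in Mst-/- EBs and 1.22 in wild type EBs, and Col4a6 by 1.02 in Mst-/- EBs and 1.09 in wild type EBs. Col12a1 changed alike in both genotypes, being at least 1.85-fold higher at day 8 in Mst-/- EBs and at least 2.04-fold higher in wild type EBs.

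The 6 genes past 1.5-fold in wild type EBs alone were Col2a1, Col5a2, Col6a2, Col9a1, Col11a1 and Col18a1 (15.8% of 38), against 6.35% of all genes. Several depend on the processing. Col2a1 was within 1.5-fold in wild type EBs with centred arrays (0.49), quantile normalization (0.51) and the mean (0.58), Col6a2 (0.01) and Col11a1 (0.23) were so with the brightest probe set, and Col5a2 passed in Mst-/- EBs with it. Col9a1 changed by 0.66 in wild type EBs, and centring takes 0.12 off a wild type change, which leaves Col9a1 within 1.5-fold. Of the 6 genes Col18a1 had the widest gap, with a change of -0.06 ± 0.20 in Mst-/- EBs and 1.85 ± 0.88 in wild type EBs (3.59-fold). Col23a1 alone passed 1.5-fold in Mst-/- EBs but not in wild type EBs (2.63% of 38, against 3.86% of all genes), with 0.80 in Mst-/- EBs and -0.39 in wild type EBs. With 1 array per condition, a gene past the threshold in one genotype and not in the other is not shown to differ between them. In 4 of the 13 genes called in Mst-/- EBs the day 4 signal was below background, and for 3 of these (Col4a6, Col6a3 and Col14a1) the bound itself was under 1.5-fold.

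**Figure D4:**
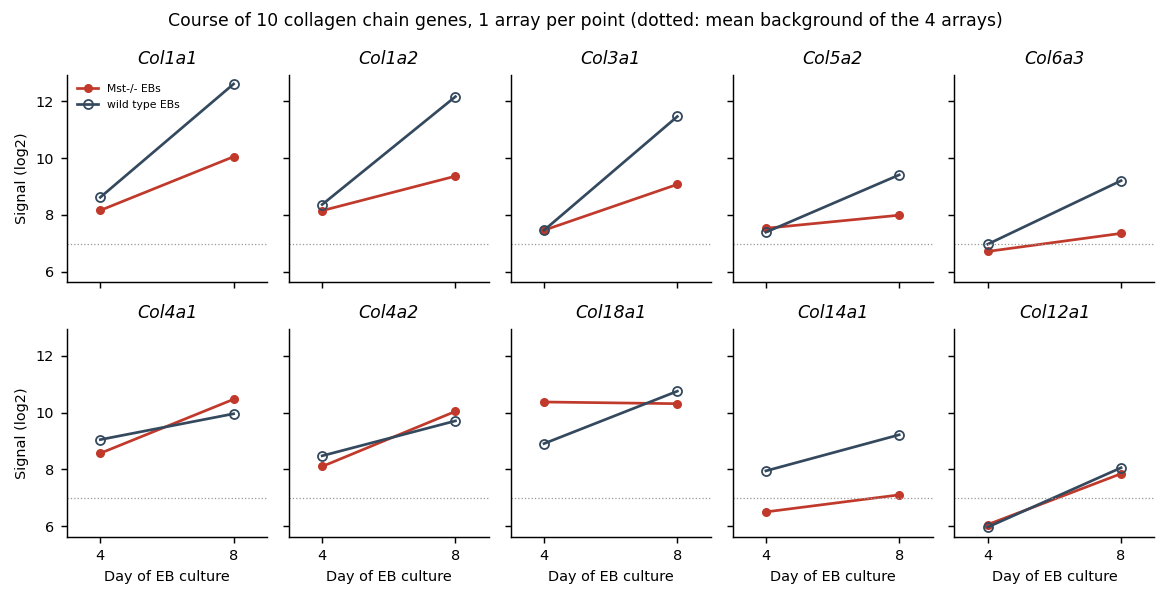
Log2 signal of 10 collagen chain genes (panels) at day 4 and day 8 in Mst-/- EBs (filled points) and wild type EBs (open points), 1 array per point, with the mean background of the 4 arrays dotted. The lines of Col1a1, Col1a2, Col3a1, Col5a2 and Col6a3 part after day 4, those of Col4a1 and Col4a2 cross, and the Mst-/- line of Col18a1 stays flat at 10.38 and 10.32.

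Procollagen chains are hydroxylated, glycosylated and folded in the endoplasmic reticulum before secretion. Of 21 genes for these steps 18 had a value, and in Mst-/- EBs 4 of 16 compared were over 1.5-fold lower at day 4 (median -0.14) and 5 of 17 at day 8 (median -0.30), with 0 higher on either day. Over all genes 8.52% were lower and 10.3% higher at day 4, and 8.22% lower and 8.42% higher at day 8, and these shares are the background of each list that follows. Creb3l1, a transcription factor held in the endoplasmic reticulum that activates Col1a1 in osteoblasts, was at 10.09 in Mst-/- EBs and 11.41 in wild type EBs at day 8 (-1.32 ± 0.24). P3h1, P3h3 and P3h4, of the prolyl 3-hydroxylase family, differed by -0.68 ± 0.16, -1.02 ± 0.45 and -1.02 ± 0.10 at day 8, and Fkbp14, a prolyl isomerase, by -0.85 ± 0.10. At day 4 the largest difference in this list was that of P3h2, which hydroxylates type IV collagen, at 8.38 in Mst-/- EBs and 10.02 in wild type EBs (-1.65 ± 0.76). Fkbp14 (-1.23 ± 0.24), P3h4 (-0.91 ± 0.15) and P4ha1 (-0.75 ± 0.23), a subunit of prolyl 4-hydroxylase, were the others over 1.5-fold lower at day 4.

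After secretion the propeptides are cut off and the fibrils are cross-linked. Of 14 genes for these steps 10 had a value, and in Mst-/- EBs 3 of 9 compared were past 1.5-fold on the lower side (background 8.52%) and 1 on the higher side (background 10.3%, near 1 of 9) at day 4, and 4 of 8 on the lower side and 1 on the higher side at day 8 (median -0.51). Loxl1, an oxidase that cross-links collagen and elastin, was at 8.84 in Mst-/- EBs and 10.26 in wild type EBs at day 8 (-1.42 ± 0.50), after a difference of 0.61 ± 0.28 at day 4. Pcolce, the enhancer of the enzyme that removes the C-propeptide, was at 9.12 in Mst-/- EBs and 10.50 in wild type EBs at day 8 (-1.38 ± 0.51). Adamts2, which removes the N-propeptide of types I to III, was at 9.23 in Mst-/- EBs and 10.32 in wild type EBs (-1.09 ± 0.45). Loxl3 was the other lower gene (-0.67 ± 0.40) and Pcolce2 the higher one (0.63 ± 0.38). At day 4 the lower genes were Tll1, Bmp1 and Loxl2, led by the protease Tll1, whose Mst-/- signal was below background (-1.02 ± 0.48, at least 1.88-fold lower).

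Of 11 collagen receptor genes 8 had a value, and in Mst-/- EBs 0 of 4 compared were lower and 1 higher by 1.5-fold at day 4, and 3 of 7 lower in measured signal and 0 higher at day 8, or 2 of 7 lower with signals held at background. Ddr2, a receptor kinase for fibrillar collagen, was at 6.97 in Mst-/- EBs and 8.21 in wild type EBs at day 8 (-1.24 ± 0.55). Mrc2, an endocytic receptor that takes up collagen fragments, was at 9.21 in Mst-/- EBs and 10.29 in wild type EBs (-1.08 ± 0.34). Lair1, an inhibitory receptor of leukocytes, was at 5.92 in Mst-/- EBs and 7.46 in wild type EBs, where the Mst-/- signal was below background and the difference is at least 1.46-fold. The gene higher at day 4 was Ddr1, the epithelial counterpart of Ddr2 (0.64 ± 0.34).

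Genes of collagen turnover, the matrix metalloproteinases (Mmp), cathepsin K and the metalloproteinase inhibitors (Timp), had more members past 1.5-fold at day 4 than at day 8. Of 9 genes compared, 5 were past 1.5-fold on the lower side in Mst-/- EBs and 2 on the higher side at day 4 (median -0.75, background 8.52% lower and 10.3% higher), whereas at day 8 the counts were 2 and 0 of 9 (median -0.21, background 8.22% lower and 8.42% higher). At day 4 Mmp15, a membrane-bound protease, was at 8.21 in Mst-/- EBs and 9.61 in wild type EBs (-1.40 ± 0.57). Mmp14, the membrane-bound protease that activates Mmp2, differed by -0.89 ± 0.22, and Timp2, which assists in that activation, by -0.89 ± 0.43. Timp1, a secreted inhibitor, was at 10.15 in Mst-/- EBs and 8.52 in wild type EBs (1.63 ± 0.26), the largest difference of the list. At day 8 Mmp16 (-0.94 ± 0.67) and Timp3 (-0.60 ± 0.20) were lower.

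**Figure D5:**
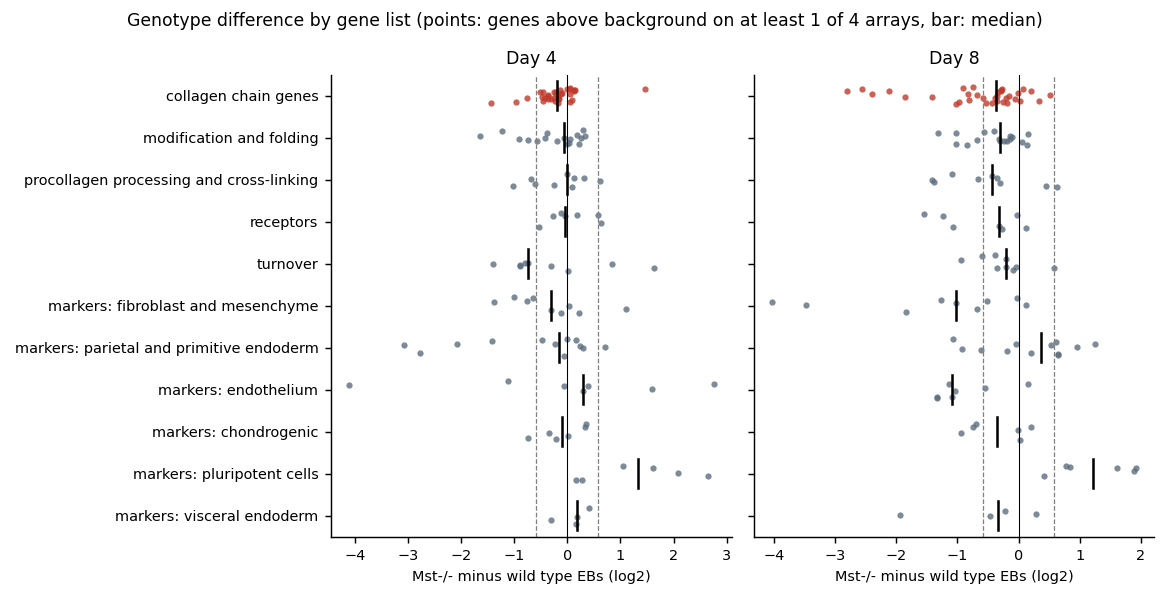
Difference in log2 signal, Mst-/- minus wild type EBs, at day 4 (left) and day 8 (right) for collagen chain genes (red) and for the companion and marker lists, each point being a gene that exceeded background on 1 or more arrays, with the list median as a bar and 1.5-fold as dashed lines. At day 8 Col1a2, at -2.80, is the leftmost collagen gene.

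EBs hold many cell types, and the mean signal of marker genes was compared on the same arrays. Most of the fibroblast and mesenchyme markers compared were, like most fibrillar collagens, lower in Mst-/- EBs at day 8. Their mean log2 signal over 11 genes was 6.93 in Mst-/- EBs and 7.14 in wild type EBs at day 4, and 8.78 in Mst-/- EBs and 9.98 in wild type EBs at day 8. At day 4 the Mst-/- signal was over 1.5-fold lower in 3 of 7 compared (Pdgfrb, Prrx1 and Fbn1). It was higher in 1 (Dcn), or in 0 with signals held at background. Of 10 fibrillar collagens compared at day 4, 0 were past 1.5-fold in either direction. At day 8 the Mst-/- signal was lower by over 1.5-fold in 6 of 9 markers compared (median -1.03). Thy1 (-0.035), Twist1 (0.125) and Prrx1 (-0.525) were within 1.5-fold. Decorin (Dcn), a proteoglycan that coats type I fibrils, was at 8.97 in Mst-/- EBs and 13.00 in wild type EBs at day 8, lumican (Lum) at 9.22 in Mst-/- EBs and 12.69 in wild type EBs, and periostin (Postn) at 11.67 in Mst-/- EBs and 13.51 in wild type EBs, while Mfap5 and S100a4 were below background on all 4 arrays. Embryonic fibroblasts of the kind used as feeders express many of these genes too. The part of mesenchymal cell number in the lower fibrillar collagen signal was not tested.

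Markers of parietal and primitive endoderm, the cells that deposit the first type IV collagen, had a mean of 9.11 in Mst-/- EBs and 9.84 in wild type EBs at day 4, and 11.01 in Mst-/- EBs and 10.84 in wild type EBs at day 8. The Mst-/- mean was thus below wild type by 0.73 at day 4 and above it by 0.16 at day 8, over markers that went both ways. Past 1.5-fold in Mst-/- EBs were 1 higher and 4 lower of 11 compared at day 4, and 5 higher and 3 lower of 12 at day 8. Of the laminin chains, the other main component of basement membranes, Lama1 was at 11.64 in Mst-/- EBs and 10.40 in wild type EBs at day 8 (1.24 ± 0.37), Lamb1 differed by 0.64 ± 0.19, and Lamc1, with 0.53 ± 0.11, was within 1.5-fold. Nidogen (Nid1), which links laminin to type IV collagen, was lower (-0.61 ± 0.11), as were the lineage markers Gata6 (-0.93 ± 0.34) and Pdgfra (-1.07 ± 0.14). The markers Sox17 (0.95 ± 0.34), Sox7 (0.615 ± 0.45) and Thbd (0.645 ± 0.41) were over 1.5-fold higher at day 8, and Gata4 (0.205 ± 0.11) was within 1.5-fold. At day 4 Lamc1 was higher (0.70 ± 0.21), and Gata4, Gata6, Sox17 and Pdgfra were lower, by as much as -3.08 ± 0.88 in Pdgfra. Endothelial markers had a mean of 7.31 in Mst-/- EBs and 7.35 in wild type EBs at day 4, and went both ways. Of 5 compared, 2 were over 1.5-fold higher (Pecam1, 2.755, and Tek, 1.60) and 2 lower (Kdr, -4.11, and Cdh5, -1.115). At day 8 their mean was 9.32 in Mst-/- EBs and 10.22 in wild type EBs, with 5 of 7 over 1.5-fold lower. Chondrogenic markers had a day 8 mean of 7.62 in Mst-/- EBs and 7.98 in wild type EBs. Of these, 3 of 5 compared were lower in measured signal and 2 of 5, without Matn1, with signals held at background. Markers of visceral endoderm, of which 4 of 6 had a value, averaged 10.45 in Mst-/- EBs and 11.04 in wild type EBs at day 8, with 1 of 4 lower. Markers of pluripotent cells stood higher at either day, with 10.93 in Mst-/- EBs and 9.62 in wild type EBs at day 4 (4 of 6 over 1.5-fold higher), and 10.36 in Mst-/- EBs and 9.12 in wild type EBs at day 8 (5 of 6 higher). Whether any of these cell types accounts for part of a collagen difference was not tested.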

How the data were processed

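EB RNA of either genotype and day was hybridised to an exon 1.0 ST array for mouse from Affymetrix, with 1 array per condition. The authors deposited 1 log2 signal for every probe set. Affymetrix Expression Console is named in the submitters' processing notes without a version, and the sources used here do not say how the log2 signal was summarised and normalised. Partek and Genespring are the programs of the study's methods, whose threshold of 1.5-fold was taken over. No further scaling was applied.

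Of 229581 probe sets, 209279 had 1 gene symbol in GEO's platform annotation, 4446 had several and 15856 had none, and only the first kind was used. Other genes' symbols were brought to current RefSeq names (16380 array symbols, of which 14190 needed no change, 2145 were found as synonyms and 45 were left as they stood), which gave 16358 genes. The collagen genes were taken from the symbols as annotated. A gene's value is the median over its probe sets. Background on an array is the 95th percentile over the olfactory and vomeronasal receptors, and a gene was compared when it exceeded this on either array of a pair. Where only 1 array was above background, "at least" gives the fold against background. Counts past 1.5-fold were set beside those over all genes compared, with no test, since no condition has replicates and the number of arrays limits the precision. The precision of a gene rests on its number of probe sets.

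The collagen genes, the companion and marker lists and the comparisons were chosen with earlier results of these data known. Named in full were collagen genes with at least 3 probe sets that passed 1.5-fold in a genotype comparison and the 12 with the highest mean signal, and up to 4 genes of each companion list per day by size of difference, with others given where the text refers to them. Alternatives were median centring, quantile normalization, the mean or the brightest probe set per gene, no filter, the 99th percentile as background, values raised to background, 2-fold as threshold, agreement of 75% of probe sets, and updated symbols. Promoter windows are from RefSeq GRCm38.p6. The counting was tested on simulated data. Python 3.11.15 was used with numpy 2.4.6, pandas 2.3.3, scipy 1.17.1 and matplotlib 3.10.9.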

Additional observations from a re-analysis of the deposited data

Results flagged for a closer look

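Col18a1 and Col4a2 differed between the genotypes in opposite directions on the 2 days in most of their probe sets. The genotype difference of Col18a1, Mst-/- minus wild type EBs, was 1.47 at day 4 (45 of 46 probe sets higher) and -0.44 at day 8 (43 of 46 lower), a change of -1.905 on the log2 scale. That of Col4a2 was -0.38 at day 4 (50 of 54 lower) and 0.34 at day 8 (47 of 54 higher), a change of 0.71. Both Col4a2 differences were within 1.5-fold and smaller than their SD over probe sets, and the day 8 difference of Col18a1 was within 1.5-fold. With 1 array per condition neither change was tested.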

How the results depend on the processing

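With 1 array per condition no alternative supplies a replicate error. At day 4, 3 of 31 collagen genes compared were over 1.5-fold lower in Mst-/- EBs. The count was 1 of 15 with the 99th percentile as background, which left fewer genes to compare. It was 1 of 31 with a 2-fold threshold and 2 of 31 with values raised to background. Over all genes the count of 1018 of 11943 was 818 of 9365 with the 99th percentile. It was 391 of 11943 at 2-fold and 923 of 11943 with values raised to background. At day 8 the count of 14 of 34 was 7 of 34 with a 2-fold threshold. Over all genes that threshold took the count from 1000 to 448 of 12171. The collagen count was between 10 and 14 under the other alternatives. With the brightest probe set it was 10 of 36, against 802 of 13343 over all genes. The collagen median of -0.37 was -0.565 with the 99th percentile. The brightest probe set gave 0.01 for Col23a1 at day 4 in place of -0.975, a reversed sign. It also brought Col4a6 and Col14a1 at day 4, and Col4a5, Col4a6, Col6a1, Col6a2 and Col15a1 at day 8, within 1.5-fold, and took Col4a1 (-1.12), Col4a2 (-0.69) and Col5a1 (-1.25) at day 4 past it. The mean over probe sets took Col4a1 to -0.71 at day 4. For the change with time in Mst-/- EBs, the median of 0.30 was 0.20 with centred arrays and 0.19 with quantile normalization. It was 0.055 with the brightest probe set. The count of 13 of 33 higher genes was 8 of 33 at 2-fold and 10 of 33 with values raised to background. With the brightest probe set it was 5 of no more than 38. Over all genes the count of 1609 of 12134 was 1341 of 13329 with the brightest probe set. It was 781 of 12134 at 2-fold and 1472 of 12134 with values raised to background. With the brightest probe set the collagen share was thus nearer to the share over all genes than with the median. In wild type EBs the median of 0.64 was 0.515 centred, 0.52 with quantile normalization, 0.58 with the mean, 0.125 with the brightest probe set, 0.445 without a filter and 1.085 with the 99th percentile. Centring moved the median over all genes by 0.10 in Mst-/- EBs and by 0.12 in wild type EBs. With centred arrays the genes higher and lower at day 8 over all genes were 1324 and 1331 in Mst-/- EBs, in place of 1609 and 908, and 1653 and 2159 in wild type EBs, in place of 2016 and 1531, whereas for collagen genes the counts were 9 and 0 in Mst-/- EBs and 16 and 0 in wild type EBs. The cause of these shifts was not tested. With the mean, the brightest probe set, centring and quantile normalization, Col1a1, Col1a2, Col2a1, Col3a1, Col5a1, Col5a2, Col6a3, Col11a1 and Col14a1 were over 1.5-fold lower at day 8 each time. No paired analysis was possible because each condition has 1 array.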

Other observations

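When array symbols were brought to current RefSeq names before the rule was applied, 40 collagen genes were found in place of 38. Col26a1, first described in testis and ovary, was at 8.07 in Mst-/- EBs and 8.47 in wild type EBs at day 4, and at 8.67 in Mst-/- EBs and 8.83 in wild type EBs at day 8, within 1.5-fold on both days. Col6a6, a type VI chain related to Col6a3, was below background on all 4 arrays.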
